A study of Homo sapiens with 19 samples.

Results

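The genes described here are 33 genes of the Fanconi anaemia and homologous recombination repair pathways, followed through the silencing of BRG1 or MITF in 2 human pigment cell lines. They were chosen by name from a list that uses no expression value, though with earlier results of these data known. They make up 33 of the 44717 genes listed for any library. All 33 were listed in all 19 libraries and passed the low-count filter in each comparison, with between 84 and 14507 reads per library. The 19 RNA-seq libraries came from 501Mel, a human melanoma line, and from Hermes 3A, an untransformed human melanocyte line, each infected with lentiviruses that express 1 short hairpin RNA (shRNA). The 501Mel groups were shBRG1 (n = 3) with its scrambled control shSCR1 (n = 3), and shMITF (n = 2) with a second scrambled control, shSCR2 (n = 2). The Hermes 3A groups were shSCR, shMITF and shBRG1 (n = 3 each), so that both silenced groups of this line share their control libraries. One hairpin stands for each silenced gene, and Hermes 3A was grown with TPA, cholera toxin, stem cell factor and endothelin-1, which the 501Mel medium did not contain.

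Both pathways act on damaged or stalled replication forks. In the Fanconi pathway a core complex, brought to DNA by FANCM, uses the ubiquitin-conjugating enzyme UBE2T to monoubiquitinate the paired proteins FANCD2 and FANCI at crosslinked DNA. In homologous recombination the MRE11-RAD50-NBN complex, RBBP8 (CtIP) and EXO1 trim the broken ends, BRCA1, PALB2 and BRCA2 prepare the single strand for strand exchange, RAD51B, RAD51C, RAD51D, XRCC2, XRCC3 and the RAD54 proteins assist that exchange, and BLM, RMI1, SLX4 and EME1 resolve the joined molecules. BRG1, encoded by SMARCA4, is the ATPase of a SWI/SNF chromatin remodelling complex, and MITF is the transcription factor that defines the melanocyte lineage.

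The libraries held 29158502 to 78857900 counted reads, and the targeted genes were checked first. The level of SMARCA4, given as CPM (the read count scaled to a fixed library total after TMM normalization within each comparison), fell from 207–226 in shSCR1 to 40.1–45.3 in 501Mel shBRG1 (log2 fold change −2.36) and from 204–231 to 39.98–43.4 in Hermes 3A shBRG1 (−2.38). MITF fell from 1037–1154 to 489–562 CPM in 501Mel shMITF (−1.06) and from 901–996 to 414–660 in Hermes 3A shMITF (−0.85). MITF also fell after shBRG1 silencing, by 1.55 on the log2 scale in 501Mel and by 0.43 in Hermes 3A. For the marker genes, and for the summed levels of proliferation genes below, CPM was scaled to the library total without TMM. All 6 melanocyte markers examined were present at 1 CPM or more in each group, and their summed level was lower in each silenced group than in its control. It was 30060–31634 CPM in shSCR1 and 3653–4045 in 501Mel shBRG1, 19043–20548 in shSCR2 and 11403–11649 in 501Mel shMITF, and 53824–54798 in shSCR against 28112–28974 in shBRG1 and 23723–30231 in shMITF in Hermes 3A. Taken singly, at an adjusted p under 0.05, all 6 fell in both shBRG1 comparisons. Of the 6, 5 fell in 501Mel shMITF and 4 in Hermes 3A shMITF, and 0 rose. Summed fibroblast markers were 3.70–5.19 CPM in shSCR1 and 20.4–24.4 in 501Mel shBRG1, where 4 of the 5 tested were called up, and 7.18–8.63 in shSCR2 and 7.87–14.3 in 501Mel shMITF. In Hermes 3A they were 61.6–69.8 in shSCR, 130–141 in shBRG1 and 101–204 in shMITF. Taken singly, of the 4 fibroblast markers tested in Hermes 3A, 2 rose and 1 fell in shBRG1, and 2 rose and 0 fell in shMITF. Of the 3 tested in 501Mel shMITF 1 rose and 0 fell. The part of these markers in the members' changes was not tested. Keratinocyte markers summed to at most 58.2 CPM, endothelial markers to at most 14.2 and blood cell markers to at most 1.90. The share of reads from mitochondrial genes was 10.4 to 11.4% in 501Mel shBRG1 and 2.14 to 7.61% in the other groups.

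The promoters of 4 members are printed because these genes moved in different directions below. Each line gives the 250 bases upstream of the RefSeq transcription start on the gene's own strand, 5′ to 3′, with E2F-like and CCAAT words in capitals. The windows lie at chr1:46247438-46247687 (+) for RAD54L, chr15:90717096-90717345 (+) for BLM, chr7:152676142-152676391 (−) for XRCC2 and chr17:58692323-58692572 (+) for RAD51C, all in GRCh38.p14.
RAD54L: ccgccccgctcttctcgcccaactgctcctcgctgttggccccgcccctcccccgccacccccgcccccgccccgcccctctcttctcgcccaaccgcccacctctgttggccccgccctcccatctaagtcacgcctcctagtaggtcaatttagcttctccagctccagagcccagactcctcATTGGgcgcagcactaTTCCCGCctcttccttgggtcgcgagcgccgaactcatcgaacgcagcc
BLM: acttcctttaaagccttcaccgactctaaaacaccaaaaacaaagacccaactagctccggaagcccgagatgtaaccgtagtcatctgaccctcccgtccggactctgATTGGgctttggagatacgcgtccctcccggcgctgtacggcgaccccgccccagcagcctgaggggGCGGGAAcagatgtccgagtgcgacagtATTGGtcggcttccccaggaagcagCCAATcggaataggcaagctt
XRCC2: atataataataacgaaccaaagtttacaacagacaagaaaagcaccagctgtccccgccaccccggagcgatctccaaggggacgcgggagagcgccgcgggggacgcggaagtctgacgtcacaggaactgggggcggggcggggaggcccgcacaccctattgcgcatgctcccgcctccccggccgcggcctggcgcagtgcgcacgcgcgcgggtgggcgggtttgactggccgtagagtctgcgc
RAD51C: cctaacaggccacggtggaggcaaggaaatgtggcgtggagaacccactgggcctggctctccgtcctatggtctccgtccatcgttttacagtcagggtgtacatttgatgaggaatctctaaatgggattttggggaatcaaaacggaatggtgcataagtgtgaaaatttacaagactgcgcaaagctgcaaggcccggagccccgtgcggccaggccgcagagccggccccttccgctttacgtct

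RAD54L and BLM hold an E2F-like word and XRCC2 and RAD51C hold none. These genes were picked after their values were seen, and the pairing does not extend to all members. After shBRG1 silencing in the melanoma line (below), BRCA1, EXO1, FANCE, RBBP8 and RAD51B fell without the word. Of the other members with the word, FANCA, FANCG and EME1 fell, RAD51D rose, and FANCC, FANCL and RAD52 did neither. A link between the word and the direction of change was not tested. A RefSeq promoter was found for 30 members. Both strands were searched for the E2F-like word TTNNCGC with C or G at each N, which was in 9 of the 30 windows (30.0%) and in 11.02% of all 27305 promoters of the same length. CCAAT was in 36.7% of the members' promoters against 33.04% of all, the cell cycle word TTTGAA in 10.0% against 13.6%, and the E-box words CACGTG and CATGTG in 3.33% each against 6.49% and 9.54%. The median GC content was 65.0% in the members and 58.0% in all promoters, and these matches describe letters, not binding.

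In the control cells the members spanned a wide range of levels. Per kilobase of exon, and with all 19 libraries normalized together, UBE2T was the highest in each of the 7 groups, at 17.2 CPM per kb in shSCR1, 33.6 in shSCR2 and 17.0 in Hermes 3A shSCR. The lowest were RAD51D in shSCR1 (0.77 CPM per kb), RAD51B in shSCR2 (1.14) and RAD54B in Hermes 3A shSCR (0.69). For 18 members (54.5%) each 501Mel scramble library lay above each Hermes 3A shSCR library, against 23.7% of all 22817 genes, and for 2 members (6.06%) each lay below, against 25.1%. EME1, the partner of the MUS81 nuclease, stood 5.72 times higher in shSCR1 and 4.66 times higher in shSCR2 than in Hermes 3A shSCR, and BRCA2 stood 2.14 and 5.83 times higher. RAD50 stood at 0.33 and 0.58 times its melanocyte level. These ratios compare lines grown in different media, and the line and the medium cannot be told apart.

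In 501Mel, shBRG1 silencing down-regulated most of the members. The transcript level fell for 22 of the 33 (66.7%) and rose for 4 (12.1%) at an adjusted p under 0.05, against 39.1% of the 20514 genes tested that fell and 41.2% that rose. The median log2 fold change was −0.50 in the members and 0.05 in all genes tested. With the additional requirement of a log2 fold change beyond 1 in either direction, called below, 6 members (18.2%) were down and 0 up, against 17.4% and 21.7% of all genes, so against shSCR1 the share called down was near the background. The libraries of the 2 groups did not overlap, with shBRG1 lower, for 22 members (39.4% of all genes), and with shBRG1 higher for 4 (42.0%). Relative to the library totals in place of TMM the median of all genes moved to 0.40 and that of the members to −0.15. With that scaling 17 of the 33 members fell and 11 rose, against 5838 and 11302 of the 20514 genes tested. RAD52, MRE11, PALB2, RAD50 and RAD54B turned to positive values.

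**Figure D1:**
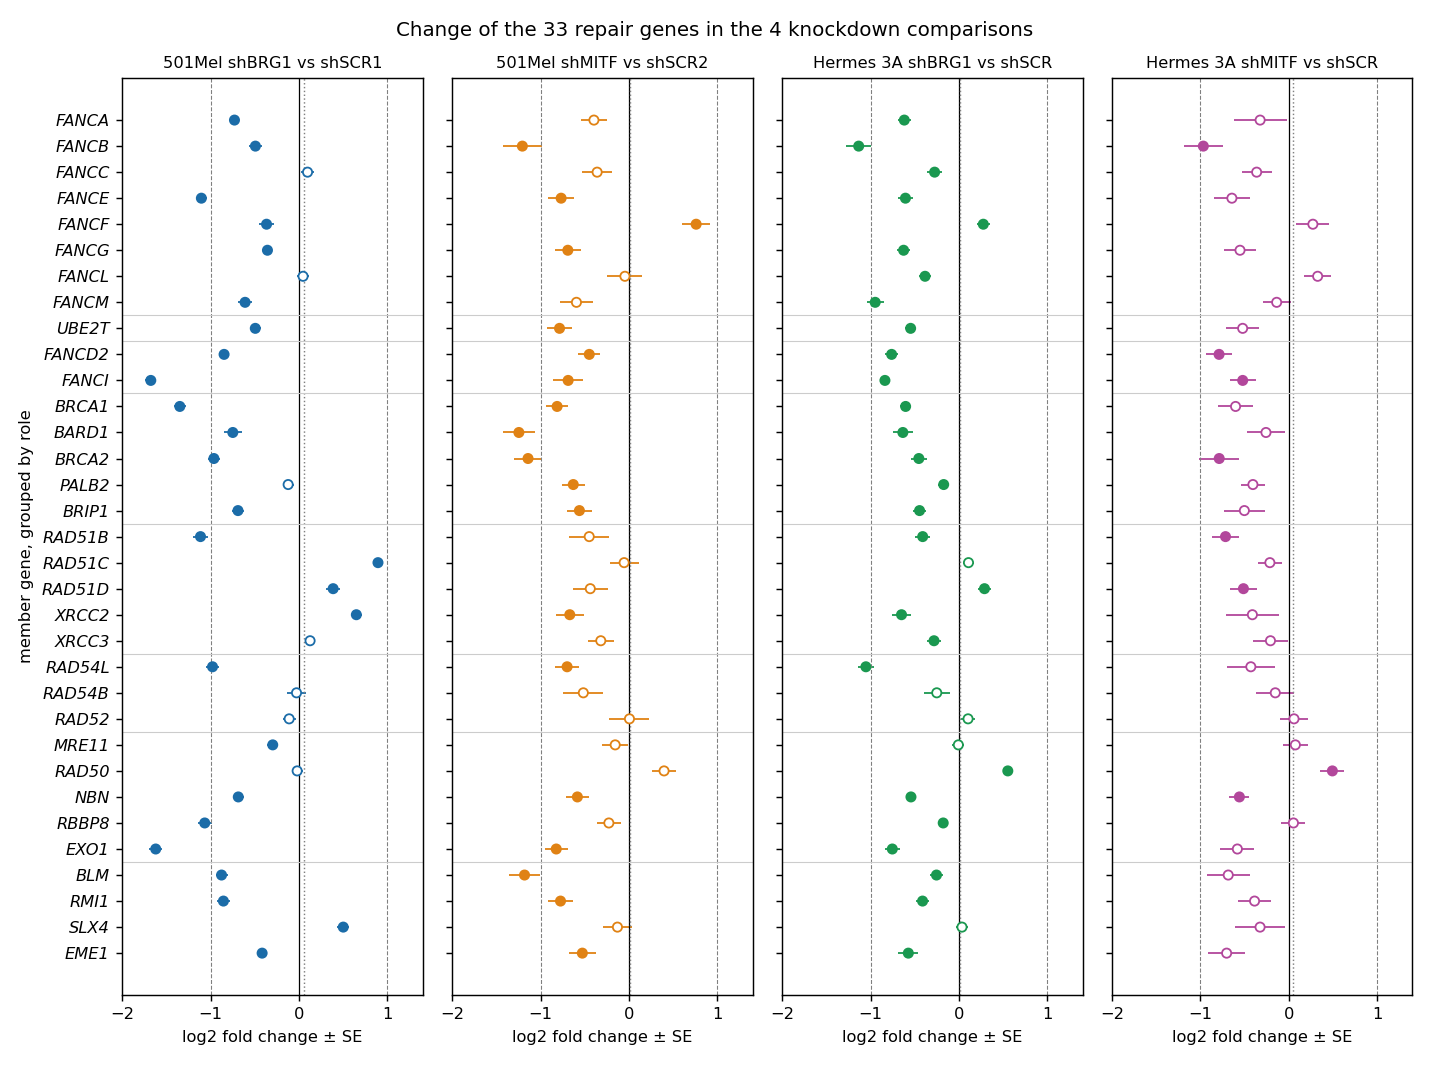
Log2 fold change of each member (x axis, point with standard error) in the 4 comparisons of a silenced group with its scrambled control, with members grouped by role (y axis). Filled points passed an adjusted p under 0.05, the dotted line is the median of all genes tested, dashed lines mark a log2 fold change of −1 and 1, and most points lie left of 0; under library-size scaling RAD52, MRE11, PALB2, RAD50 and RAD54B move to the right of 0 in 501Mel shBRG1, MRE11 does so in Hermes 3A shBRG1, and RAD51C and FANCL in 501Mel shMITF.

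The FANCD2-FANCI pair fell together. FANCI measured 104, 122 and 124 CPM in shSCR1 and 35.7, 35.01 and 38.5 in shBRG1. The silenced libraries all lay below the lowest control, and FANCI had the largest change of the 33 members (log2 fold change −1.68 ± 0.061 SE, adjusted p = 2.0e-17, edgeR quasi-likelihood test). FANCD2 measured 71.2, 76.2 and 80.6 CPM in shSCR1 and 41.9, 41.5 and 43.0 in shBRG1 (−0.85 ± 0.053). UBE2T, the enzyme that conjugates ubiquitin to this pair, fell by 0.50 on the log2 scale. In the core complex 6 of 8 genes fell. FANCE, the subunit that binds FANCD2, measured 33.3, 36.4 and 34.5 CPM in shSCR1 and 16.9, 15.3 and 16.2 in shBRG1, again without overlap (−1.11 ± 0.063, adjusted p = 8.5e-14). FANCA, the core subunit most often altered in Fanconi anaemia, fell by 0.73, the anchor FANCM by 0.61, FANCB by 0.49, FANCF by 0.37 and FANCG by 0.36. FANCC and the ubiquitin ligase subunit FANCL did not pass the test, at 0.10 and 0.05.

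Of the BRCA1 and BRCA2 complexes, 4 of 5 genes fell. BRCA1 measured 50.5, 58.6 and 57.0 CPM in shSCR1 and 20.8, 20.3 and 24.1 in shBRG1 (log2 fold change −1.35 ± 0.068, adjusted p = 8.9e-15). BRCA2 measured 29.3, 28.3 and 30.4 against 15.5, 13.2 and 16.4 CPM (−0.96 ± 0.072). BARD1, the partner of BRCA1, fell by 0.75 and the helicase BRIP1 by 0.69. The silenced libraries of BRCA1 and BRCA2 lay below all controls, while PALB2, which links the pair, overlapped between the groups (−0.12, adjusted p = 0.073). Among the end-processing genes, EXO1, a 5′ to 3′ exonuclease, measured 39.9, 50.5 and 49.9 CPM in shSCR1 and 15.3, 14.99 and 15.2 in shBRG1 (−1.62 ± 0.075, adjusted p = 1.7e-15). RBBP8, which starts resection with MRE11, measured 20.4, 26.4 and 23.7 against 11.2, 11.5 and 11.002 CPM (−1.07 ± 0.081). NBN and MRE11 fell by 0.69 and 0.30, and RAD50, the third subunit of their complex, stood at −0.02 with overlapping groups. RAD54L, a translocase of strand exchange, fell by 0.98, while RAD54B (−0.03) and RAD52 (−0.11) did not pass the test.

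The BCDX2 complex genes RAD51B, RAD51C, RAD51D and XRCC2 moved in both directions. RAD51B measured 11.9, 13.9 and 12.8 CPM in shSCR1 and 5.90, 5.68 and 6.32 in shBRG1 (log2 fold change −1.12 ± 0.086, adjusted p = 2.7e-11). RAD51C, its partner in the complex, measured 23.4, 24.8 and 24.6 against 44.8, 45.2 and 45.0 CPM, the largest rise of the 33 (0.89 ± 0.054, adjusted p = 3.4e-13). XRCC2 measured 21.0, 23.8 and 23.8 against 35.7, 35.2 and 36.5 CPM (0.65 ± 0.061, adjusted p = 9.9e-10). The controls of RAD51C and XRCC2 all lay below the silenced libraries. RAD51D rose by 0.39 as the third member of this complex to rise, and XRCC3 stood at 0.12 without passing the test. The rises in this paragraph are relative to shSCR1, and the levels in shSCR2 are given below. Among the junction-processing genes BLM, RMI1 and EME1 fell by 0.88, 0.86 and 0.42, and SLX4, a scaffold for nucleases, rose by 0.50.

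The 501Mel shBRG1 libraries also had less RNA of the 19 proliferation genes used for comparison. All 19 fell, with a median log2 fold change of −1.45, led by MCM6 (−2.77), MKI67 (−2.63) and PCNA (−2.005). Their summed level, scaled to the library total without TMM, was 1474 to 1500 CPM against 2660 to 2943 in shSCR1. Their part in the members' fall was not tested, and in these bulk libraries fewer cycling cells and less RNA per cell cannot be told apart. When all 5 scrambled 501Mel libraries were pooled as the control, 20 members fell (60.6%, against 24.3% of all genes), 0 rose (27.1% of all genes) and 12 were called down (36.4%, against 14.6%), so the share called down then lay above the background. That pool includes shSCR2, the control of shMITF, and 28 members were lower in shSCR1 than in shSCR2 (below). In the pooled counts the shBRG1 effect and this gap between the scrambles cannot be told apart.

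**Figure D2:**
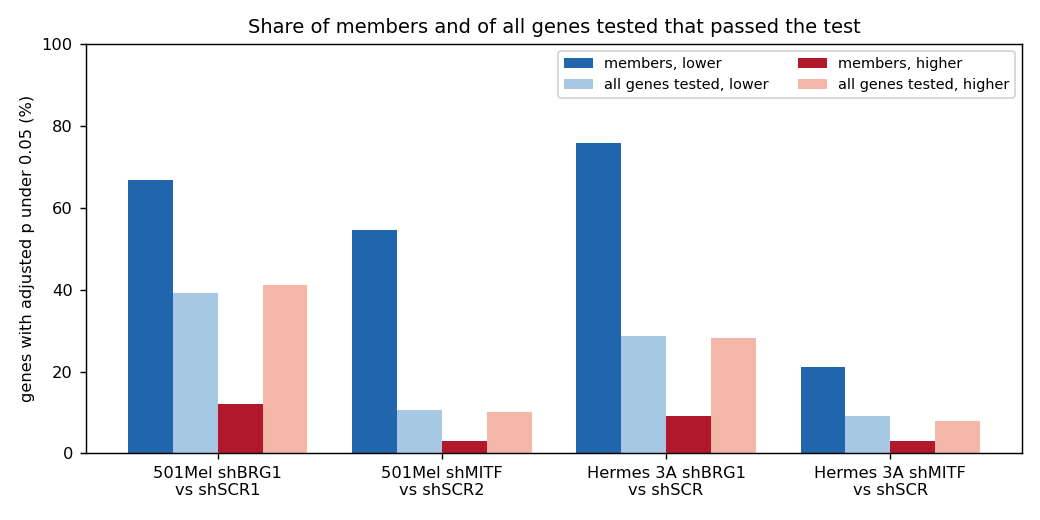
Percent of the 33 members and of all genes tested (y axis) that passed an adjusted p under 0.05 in each comparison (x axis), lower in blue and higher in red, with all genes tested in the paler colour. The members' share of genes that fell was 66.7, 54.5, 75.8 and 21.2% from left to right, against 39.1, 10.5, 28.6 and 9.15% of all genes. With library-size scaling in 501Mel shBRG1, 17 members were lower and 11 higher, against 5838 and 11302 of the 20514 genes tested.

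After shMITF silencing in 501Mel, 18 members fell (54.5%) and 1 rose (3.03%), against 10.5% of the 17701 genes tested that fell and 10.0% that rose. The median log2 fold change was −0.56 in the members and 0.01 in all genes, and 30 of the 33 values were below 0. Of the members 4 (12.1%) were called down and 0 up, against 3.40% and 5.59% of all genes. The 2 libraries of each group did not overlap, lower in shMITF, for 28 members (30.6% of all genes) and higher for 2 (32.5%). All 5 genes of the BRCA1 and BRCA2 complexes fell. BARD1, the ubiquitin ligase partner of BRCA1, measured 22.8 and 23.2 CPM in shSCR2 and 10.6 and 8.77 in shMITF (−1.25 ± 0.18 SE, adjusted p = 0.0025, edgeR). BRCA2 measured 66.5 and 67.8 against 34.2 and 26.7 CPM (−1.14 ± 0.15, adjusted p = 0.0018). For both genes each silenced library lay well below each control. BRCA1, PALB2 and BRIP1 fell by 0.81, 0.63 and 0.56.

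In the core complex FANCB, a subunit of its catalytic module, measured 20.0 and 16.4 CPM in shSCR2 and 8.95 and 6.80 in shMITF (log2 fold change −1.21 ± 0.22, adjusted p = 0.0059). FANCE and FANCG fell by 0.77 and 0.69, and FANCM (−0.59), FANCA (−0.40), FANCC (−0.36) and FANCL (−0.05) did not pass the test. FANCF, an adaptor of the same complex, went the other way, with 16.5 and 18.7 CPM in shSCR2 and 30.2 and 29.4 in shMITF (0.76 ± 0.16, adjusted p = 0.010), and was the 1 member that rose. UBE2T, FANCD2 and FANCI fell by 0.79, 0.45 and 0.69. BLM, a helicase that dissolves joint molecules, measured 78.8 and 61.0 against 34.3 and 27.3 CPM (−1.18 ± 0.17, adjusted p = 0.0026), and its partner RMI1 fell by 0.78. EME1 fell by 0.53, and SLX4 stood at −0.13. EXO1 and NBN fell by 0.82 and 0.58, whereas MRE11 (−0.16), RAD50 (0.40) and RBBP8 (−0.23) did not pass the test. In the BCDX2 complex XRCC2 fell, by 0.67, and RAD51C stood at −0.05 with overlapping groups. RAD51B (−0.45), RAD51D (−0.44) and XRCC3 (−0.32) did not pass the test. RAD54L fell by 0.70, while RAD54B (−0.52) and the annealing protein RAD52 (0.01) did not pass.

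Of the 19 proliferation genes 18 fell in the same libraries, with a median log2 fold change of −0.89 and summed levels of 2905 to 3150 CPM in shMITF against 4882 to 4978 in shSCR2, led by MCM6 (−1.53), CDK1 (−1.37) and AURKA (−1.16). Their part in the members' fall was not tested. The members' counts changed with the control used. With all 5 scrambled libraries pooled 1 member fell (3.03%, against 1.81% of all genes), 0 rose (2.34%) and 0 were called down (1.27%). Over all genes tested, 1862 fell against shSCR2 and 355 against the pool. A changed control level and the spread between unlike scrambles cannot be told apart in these counts. Without shMITF replicate 2 the members' median log2 fold change was −0.52.

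The scrambled controls of 501Mel differed from each other in these genes. In shSCR1 relative to shSCR2, 28 members were lower (84.8%) and 3 higher (9.09%), against 35.3% and 34.5% of the 19056 genes tested, and the median log2 difference was −0.78 in the members and 0.03 in all genes. Of the members 9 (27.3%) were called lower and 0 higher, against 12.3% and 20.7% of all genes. BRCA2 measured 25.2, 24.2 and 25.99 CPM in shSCR1 and 67.2 and 69.7 in shSCR2 when all libraries were normalized together. NBN measured 26.5, 28.9 and 31.2 against 97.6 and 107 CPM, the widest gap of the 33 (log2 difference −1.84 ± 0.083 SE, adjusted p = 5.4e-07, edgeR). FANCI measured 89.3, 104 and 106 against 230 and 198 CPM (−1.11). EME1, RAD51B and FANCA were higher in shSCR1, by 0.28, 0.36 and 0.24. Other genes were also lower in shSCR1, namely all 19 proliferation genes (median −0.88, 7 called), 12 of the 14 damage signalling genes, SMARCA4 (−0.83) and MITF (−0.97), and the part of these in the members' difference was not tested.

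On the common scale shSCR2 had the highest mean of the 4 501Mel groups for 25 members (75.8%, against 23.7% of all 22817 genes). The shMITF mean exceeded the shSCR1 mean for 22 members (66.7%, against 47.1%). For 16 of the 33 each shMITF library lay above each shSCR1 library (33.6% of all genes), and for 8 each lay below (36.6%). FANCI, for instance, measured 154 and 106 CPM in shMITF, 1 library above the highest shSCR1 library and the other level with it, and 32.1, 31.4 and 34.4 in shBRG1. XRCC2 measured 18.0, 20.4 and 20.3 CPM in shSCR1, 29.7 and 28.9 in shSCR2, 19.2 and 16.6 in shMITF and 32.1, 31.6 and 32.7 in shBRG1. The shBRG1 level of XRCC2 thus lay above both controls, but by far less over shSCR2 than over shSCR1. The mean of RAD51C was 40.3 CPM in shBRG1, 20.8 in shSCR1 and 35.5 in shSCR2, and that of SLX4 was 26.9, 18.2 and 22.9. RAD51D, at 11.8 in shBRG1, lay above shSCR1 (8.70) but below shSCR2 (13.0). The series' design text names shSCR2 as the control of shMITF, which leaves shSCR1 for shBRG1, and does not say what else separates the scrambled sets. The shSCR1 and shBRG1 libraries list 42224 genes and the shSCR2 and shMITF libraries of 501Mel 41467.

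**Figure D3:**
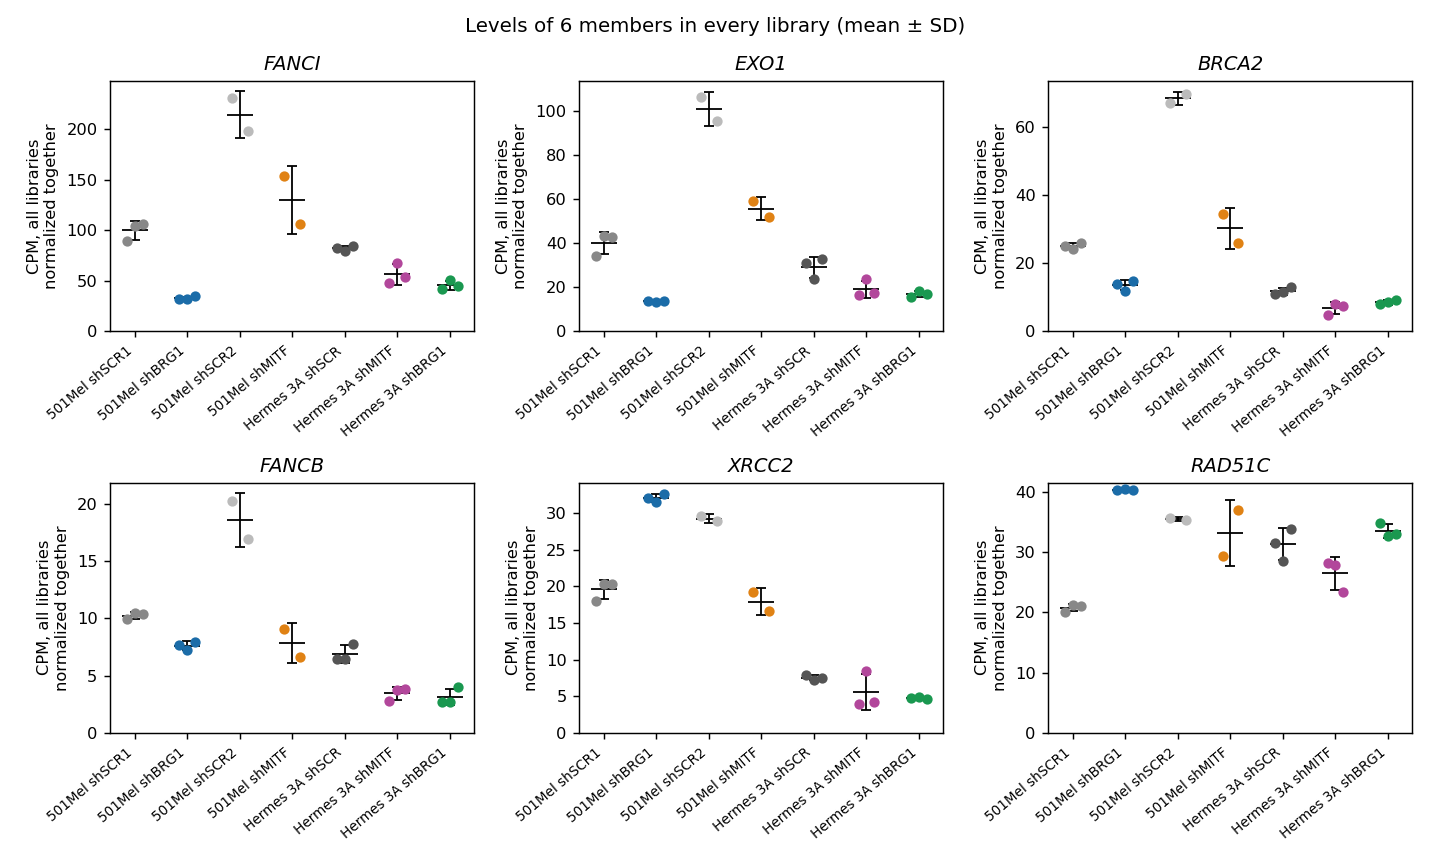
CPM of 6 members (y axis from 0, all libraries normalized together) in each library of the 7 groups (x axis), with points for libraries and bars for mean ± SD. FANCI, EXO1, BRCA2 and FANCB are highest in 501Mel shSCR2, while XRCC2 and RAD51C are highest in 501Mel shBRG1.

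**Figure D4:**
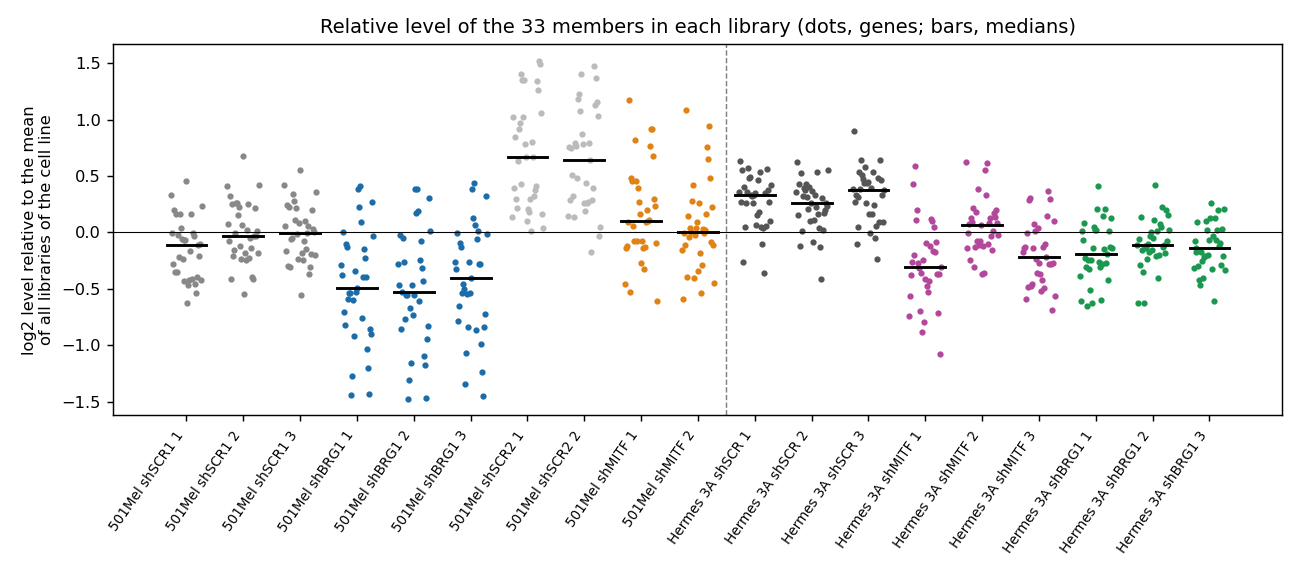
Log2 level of each member (dots) in each library (x axis) relative to the mean of all libraries of the same cell line (y axis), with bars for the median over the 33 members. The median was 0.64 and 0.67 in the shSCR2 libraries and −0.12 to −0.0058 in shSCR1, and Hermes 3A shMITF replicate 2 (0.062) stood above the other libraries of its group (−0.31 and −0.22).

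In Hermes 3A melanocytes shBRG1 silencing down-regulated the members by small amounts. Of the 33, 25 fell (75.8%) and 3 rose (9.09%), against 28.6% and 28.2% of the 17222 genes tested, with a median log2 fold change of −0.45 against 0.01. Of these, 2 (6.06%) were called down and 0 up, against 3.47% and 5.78% of all genes. Groups did not overlap for 24 members lower in shBRG1 (30.7% of all genes) and 3 higher (31.1%). FANCB measured 5.75, 5.81 and 6.98 CPM in shSCR and 2.46, 2.45 and 3.61 in shBRG1 (−1.13 ± 0.14 SE, adjusted p = 5.5e-08, edgeR). RAD54L measured 10.3, 10.4 and 10.3 against 4.72, 5.45 and 4.76 CPM (−1.05 ± 0.094, adjusted p = 1.1e-10). The silenced libraries of both genes lay below all controls.

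FANCI had the smallest p of the members here, at 73.7, 72.0 and 75.7 CPM in shSCR and 37.4, 45.5 and 40.9 in shBRG1 (log2 fold change −0.84 ± 0.055, adjusted p = 1.6e-13). Its partner FANCD2 fell by 0.76. In the core complex 7 of 8 genes fell, with FANCM, the translocase that anchors it to DNA, at −0.95, FANCG at −0.63, FANCA at −0.62, FANCE at −0.60, FANCL at −0.38 and FANCC at −0.27. UBE2T fell by 0.55. FANCF rose by 0.28. All 5 genes of the BRCA1 and BRCA2 complexes fell, from −0.63 (BARD1) to −0.17 (PALB2). RAD50 rose, with 49.4, 48.2 and 54.0 CPM in shSCR and 73.6, 75.0 and 74.1 in shBRG1 (0.55 ± 0.048, adjusted p = 5.3e-11), while its partner NBN fell by 0.54 and MRE11 stood at −0.01. EXO1 fell by 0.75 and RBBP8 by 0.18. EME1, RMI1 and BLM fell by 0.57, 0.41 and 0.25, and SLX4 (0.04), RAD54B (−0.25) and RAD52 (0.10) did not pass the test. Of the BCDX2 genes and XRCC3, RAD51D rose by 0.29, XRCC2, RAD51B and XRCC3 fell by 0.65, 0.41 and 0.28, and RAD51C did not pass the test (0.11). All 19 proliferation genes fell (median −0.81, with CCNA2 called at −1.05), with summed levels of 1066 to 1149 CPM against 1557 to 1655 in shSCR, and their part in the members' fall was not tested.

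After shMITF silencing in Hermes 3A, measured against the same control libraries, 7 members fell (21.2%) and 1 rose (3.03%), against 9.15% and 7.85% of the 16508 genes tested. The shMITF libraries list 34033 genes and the shSCR libraries 42224, for a reason not given in the sources used here. Only genes listed for both groups could be tested. The median log2 fold change was −0.41 in the members and 0.05 in all genes, and 27 of the 33 values were below 0. By edgeR 0 members were called, against 4.04% of all genes called down and 3.35% called up, and 16 had an unadjusted p under 0.05; DESeq2 also called 0. Groups did not overlap for 18 members lower in shMITF (20.6% of all genes) and 2 higher (20.3%). FANCD2 measured 30.2, 26.9 and 31.7 CPM in shSCR and 17.1, 19.2 and 15.1 in shMITF (−0.79 ± 0.15 SE, adjusted p = 0.0092). NBN measured 67.5, 66.6 and 74.1 against 47.8, 49.1 and 44.4 CPM (−0.56 ± 0.11, adjusted p = 0.014). RAD51B measured 10.7, 11.01 and 11.4 against 6.41, 6.67 and 7.07 CPM (−0.72 ± 0.16, adjusted p = 0.018), again with each silenced library below each control.

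FANCB, BRCA2, FANCI and RAD51D also fell, by 0.97, 0.79, 0.52 and 0.51, and RAD50 was the 1 member that rose, by 0.49. RAD50 measured 49.1, 48.3 and 53.6 CPM in shSCR and 66.4, 63.6 and 82.8 in shMITF. Of the members that did not pass the test, EME1 (−0.70), BLM (−0.69), FANCE (−0.64), BRCA1 (−0.60) and EXO1 (−0.58) had the lowest values and FANCL (0.33) and FANCF (0.27) the highest. With TMM scaling RAD52 passed the test in none of the 4 comparisons of a silenced group with its control, whereas with library sizes it rose in both shBRG1 comparisons (0.24 and 0.21). The shMITF libraries were unlike each other. XRCC2, for instance, measured 3.59, 7.69 and 3.87 CPM, so that 1 library lay above all controls (6.995, 6.52 and 6.65) and the others below. Of the 19 proliferation genes 10 fell (median −0.65), led by AURKB (−1.44), MKI67 (−1.07) and BUB1 (−1.06), with summed levels of 1035 to 1444 CPM against 1557 to 1655, and their part was not tested. The number of members that fell was 17 without shMITF replicate 2, 10 without replicate 1 and 4 without replicate 3, and it was 0, 1 and 0 without shSCR replicate 1, 2 and 3.

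The effect of shBRG1 silencing was then compared between the lines, which share no library. In both lines 20 members fell, out of 22 that fell in 501Mel and 25 in Hermes 3A, which is 60.6% of the members against 21.7% of the 16213 genes tested in both. A test of the difference itself (501Mel effect minus Hermes 3A effect, edgeR) passed for 22 members, with 13 lower in 501Mel (39.4%, against 33.1% of all genes) and 9 higher (27.3%, against 24.8%), so both shares were near the background. RBBP8, EXO1, FANCI and BRCA1 fell further in 501Mel, by 0.92, 0.90, 0.87 and 0.78 on the log2 scale. XRCC2 differed most, rising in 501Mel (0.65) and falling in Hermes 3A (−0.65), a difference of 1.27 ± 0.11 (adjusted p = 1.1e-12). FANCF differed the other way, with −0.37 in 501Mel and 0.28 in Hermes 3A. For shMITF silencing 0 of the 33 differences between the lines passed, against 0.83% of all genes lower in 501Mel and 2.16% higher. By edgeR 1 had an unadjusted p under 0.05, and DESeq2 passed 1. The widest of these was BARD1 (−0.995 ± 0.32, adjusted p = 0.12), and a failed test does not show that the lines responded alike. On simulated data this contrast recovered 163 of 200 genes shifted by 2 on the log2 scale, fewer than the other tests.

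Within 501Mel the silencing of BRG1 and that of MITF, each against its own control, both lowered 16 members, out of 22 and 18, which is 48.5% of the members against 8.29% of the 16922 genes tested in both. The difference of the 2 effects passed for 18 members, with shBRG1 lower for 8 (24.2%, against 26.8% of all genes) and higher for 10 (30.3%, against 21.2%). XRCC2 rose with shBRG1 and fell with shMITF, a difference of 1.34 ± 0.13 (adjusted p = 5.8e-07), and FANCF did the reverse (−1.10 ± 0.16, adjusted p = 2.8e-05). RAD51C and RAD51D were also higher after shBRG1, by 0.97 and 0.85, and FANCI, RBBP8 and EXO1 lower by 0.97, 0.82 and 0.78. The 2 effects have different scrambled controls, whose own gap is given above.

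Other genes of the same pathways were read from fixed lists. Of all genes tested, 39.1% fell and 41.2% rose in 501Mel shBRG1, and 10.5% and 10.0% in 501Mel shMITF. In Hermes 3A the shares were 28.6% and 28.2% in shBRG1 and 9.15% and 7.85% in shMITF. Of 15 further Fanconi and crosslink repair genes, 9 fell (60.0%) and 2 rose (13.3%) in 501Mel shBRG1, and 2 fell (13.3%) and 0 rose in 501Mel shMITF. In Hermes 3A, 5 fell (33.3%) and 3 rose (20.0%) in shBRG1, and 1 fell (6.67%) and 3 rose (20.0%) in shMITF. In 501Mel shBRG1 the largest changes were those of REV3L, the catalytic subunit of translesion polymerase zeta (−1.83), USP1, which removes ubiquitin from FANCD2 (−1.75), and the nuclease FAN1 (−1.28). Of the further homologous recombination genes, 10 of 22 fell (45.5%) and 9 rose (40.9%) in 501Mel shBRG1, near the shares of all genes. Of 23 tested in the others, 6 fell (26.1%) and 2 rose (8.70%) in 501Mel shMITF. In Hermes 3A, 15 fell (65.2%) and 2 rose (8.70%) in shBRG1, and 3 fell (13.0%) and 0 rose in shMITF. POLQ, counted in this list though it is the polymerase of theta-mediated end joining, was called down in each of the 4 comparisons, at −1.54, −1.18, −1.03 and −1.22 in that order. RAD51AP1 was called down in Hermes 3A shBRG1 (−1.03), RPA1, which coats single strands, in 501Mel shBRG1 (−1.11) and shMITF (−1.06), SWI5 was called up in 501Mel shBRG1 (1.41) and RECQL5 in 501Mel shMITF (1.22).

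The shares of all genes just given also apply to the next lists. The 14 damage signalling genes included 11 that fell (78.6%) and 3 that rose (21.4%) in 501Mel shBRG1, and 6 (42.9%) and 0 in 501Mel shMITF. In Hermes 3A, 9 fell (64.3%) and 1 rose (7.14%) in shBRG1. In Hermes 3A shMITF 1 fell and 1 rose (7.14% each), near the shares of all genes. BRCC3 (−1.53) and UIMC1 (1.45), both in the BRCA1-A complex, moved in opposite directions in 501Mel shBRG1, where the kinase ATM was called down (−1.32), and the checkpoint mediator CLSPN was called down in both shMITF comparisons (−1.35 and −1.13). Of the 12 end-joining genes, 7 fell (58.3%) and 1 rose (8.33%) in 501Mel shBRG1, and 3 (25.0%) and 1 (8.33%) in 501Mel shMITF. In Hermes 3A, 7 fell (58.3%) and 2 rose (16.7%) in shBRG1, and 0 and 0 in shMITF. PRKDC, the kinase of this pathway, fell by 1.395 in 501Mel shBRG1, and PAXX and XRCC5 were called down there too (−1.07 and −1.001). Of the 17 E2F, MYB and FOXM1 regulators, which govern cell cycle transcription, 10 fell (58.8%) and 3 rose (17.6%) in 501Mel shBRG1. In 501Mel shMITF 8 fell (47.1%) and 1 rose (5.88%). In Hermes 3A, 9 fell (52.9%) and 1 rose (5.88%) in shBRG1, and 2 fell (11.8%) and 0 rose in shMITF. E2F8 fell by 2.15 and 1.70 in 501Mel shBRG1 and shMITF, and TFDP1, a dimerization partner of E2F factors, fell by 1.86 in 501Mel shBRG1. E2F2 was also called down there (−1.10), and E2F5 was called up in 501Mel shMITF (1.10).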

How the data were processed

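RNA-seq was measured in 19 libraries of 7 groups. The deposited files hold the authors' raw read counts for Ensembl genes, made from ribosomal RNA-depleted total RNA normalized with a duplex-specific nuclease, a step that lowers abundant sequences and can compress differences in level. Per the submitters' processing notes, CASAVA 1.8, TopHat 1.4.1, Bowtie 0.12.7 and hg19 were used. The counting program, annotation and strand setting are not given in the sources used here, so reads of the 22 members that overlap another gene in GENCODE 29 (GRCh38) cannot be told apart from that gene's. Gene symbols and exon lengths came from GENCODE 29.

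Each silenced group was compared with its control by edgeR 4.0.16 (R 4.3.3; filterByExpr, TMM, robust quasi-likelihood test, Benjamini-Hochberg adjustment over all genes tested). "Fell" and "rose" mean an adjusted p under 0.05, and "called" adds a log2 fold change beyond 1 in either direction. Differences between effects were contrasts of one fit over the groups concerned. CPM uses TMM-scaled library sizes, except for marker genes and the summed levels of proliferation genes, which use the library totals. Tested on simulated data in which 200 genes were shifted by 2 on the log2 scale, the procedure recovered 192 to 200 of them in the 4 comparisons of a silenced group with its control, 200 for the shBRG1 difference between lines, 191 for that between shBRG1 and shMITF, 198 between the scrambles and 163 for the shMITF difference between lines, with 15 false calls there. The 4 comparisons had 2, 9, 1 and 6 false calls, and the other 3 tests 1, 13 and 2. The shifted genes were drawn from those above a count floor, and smaller shifts were not simulated. The largest change of a member in the 4 comparisons was −1.68, so recovery of changes as small as the members' is not known. Alternatives were DESeq2 1.42.0, library-size scaling, other count filters, a replicate block, wider fits, pooled scrambles, glmTreat and leaving out each library. The labels do not say that replicates were separate cultures, so p-values measure the spread between these libraries only. Members were chosen by name, and members and gene lists were chosen with earlier results of these data known. Values per library were given for called members, or for the 3 with the smallest p where fewer than 3 were called; FANCD2 and BRCA2 in 501Mel shBRG1, XRCC2, RAD51C, FANCF and RAD50, and the members shown for the scramble comparison and the promoters, were added after their values were seen. Up to 3 called genes of each other list were named by size of change.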

Additional observations from a re-analysis of the deposited data

Results flagged for a closer look

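The results below had a difference between 2 effects that passed its own edgeR test; values are differences of log2 fold changes, and no explanation was weighed. For shBRG1 silencing, 501Mel minus Hermes 3A, the core complex differed at FANCE (−0.53), FANCF (−0.68), FANCB (0.61), FANCC (0.34), FANCG (0.24), FANCL (0.40) and FANCM (0.31). FANCI differed by −0.87 and FANCD2 did not pass. Of the BRCA1 and BRCA2 complexes BRCA1 (−0.78), BRCA2 (−0.54) and BRIP1 (−0.28) fell further in 501Mel. The BCDX2 genes and XRCC3 differed at RAD51B (−0.73), RAD51C (0.76), XRCC2 (1.27) and XRCC3 (0.38). Of the end-processing genes MRE11 (−0.32), RAD50 (−0.61), RBBP8 (−0.92) and EXO1 (−0.90) were lower in 501Mel. Of the junction-processing genes BLM (−0.65) and RMI1 (−0.48) were lower and SLX4 (0.43) higher. FANCF and XRCC2 passed the test with opposite signs in the 2 lines.

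Within 501Mel, the shBRG1 effect minus the shMITF effect differed in the core complex at FANCF (−1.10), FANCB (0.74), FANCC (0.48) and FANCG (0.36). FANCD2 and FANCI differed by −0.37 and −0.97. BRCA1 (−0.51) was lower after shBRG1, and BARD1 (0.52) and PALB2 (0.53) were higher. The BCDX2 genes and XRCC3 differed at RAD51B (−0.63), RAD51C (0.97), RAD51D (0.85), XRCC2 (1.34) and XRCC3 (0.47). RAD50 (−0.39), RBBP8 (−0.82) and EXO1 (−0.78) were lower and SLX4 (0.65) higher. These effects have different scrambled controls, which themselves differed for 31 members.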

How the results depend on the processing

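Of 3432 values of single members under the alternatives, 3163 kept their side of the threshold without a reversal. Of these, 3059 kept the same sign and 104 changed sign where neither value passed. A further 158 no longer passed, 105 newly passed and 6 reversed, meaning that the sign changed and either value passed, not that both did. The reversals were RAD52 (0.24), MRE11 (0.051), PALB2 (0.23), RAD50 (0.33) and RAD54B (0.32) in 501Mel shBRG1 under library-size scaling, and NBN (0.22) in 501Mel shMITF with pooled scrambles. RAD52, PALB2, RAD50 and RAD54B had not passed with TMM scaling, and NBN did not pass with pooled scrambles. Library-size scaling moved the median of all genes from 0.05 to 0.40 in 501Mel shBRG1, from 0.01 to 0.11 in 501Mel shMITF and Hermes 3A shBRG1, and from 0.05 to 0.14 in Hermes 3A shMITF.

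In 501Mel shBRG1 the 6 members called down became 3 with library sizes, 3 with a minimum of 10 counts per library and 12 with pooled scrambles. RAD51C was the 1 called up with library sizes and with that minimum. The 4 that rose became 11 with library sizes, 7 with that minimum and 0 with pooled scrambles. In 501Mel shMITF the 4 called became 0 with pooled scrambles and 0 by glmTreat, the 18 that fell became 1 with pooled scrambles, and the 1 that rose became 2 with library sizes, 2 when the fit held each group of the line and 0 with pooled scrambles. In Hermes 3A shBRG1 the 2 called became 1 with library sizes and 0 by glmTreat, the 25 that fell became 14 with each group in the fit, and the 3 that rose became 5 with library sizes and 1 with each group. In Hermes 3A shMITF the 7 that fell became 14 by DESeq2, 4 with library sizes, 11 with no low-count filter and 15 with each group in the fit. Leaving out 1 library there gave 0 to 17 that fell, 0 to 2 that rose and 0 to 2 called down. Of the differences between effects, those higher in 501Mel for shBRG1 became 15 with library sizes, those lower for shBRG1 than shMITF became 4 with library sizes, and those lower in 501Mel for shMITF became 1 by DESeq2 and ranged from 0 to 1 without single libraries. The number higher in shSCR1 than in shSCR2 ranged from 1 to 3 without single libraries. The cause of these shifts was not tested. Where leaving out a library left a group with 1 library, the fit took its spread from the other groups.

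With the replicate block 22, 19, 25 and 7 members fell and 5, 1, 3 and 0 rose in the 4 comparisons in the order of the report, and 6, 4, 2 and 0 were called down. The deviations of same-numbered libraries correlated at −0.014 to 0.044, 0.13, −0.0064 to 0.049 and −0.049 to 0.021. Deviations centred within so few libraries depend on each other, so these values cannot decide whether same-numbered libraries were prepared together. The labels do not say. No paired analysis was possible for the comparison of the scrambled sets because their numbers name libraries within each set.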
